A study of Mus musculus with 8 samples.

Results

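Surfactant protein D and its relatives are soluble lectins that bind sugars on microbes, and 10 of their genes were followed here in whole mouse liver. The set was drawn up by name: 7 collectins (Sftpd, Sftpa1, Colec10, Colec11, Colec12, Mbl1 and Mbl2), the ficolin Fcna, and the proteases Masp1 and Masp2 that ride on these lectins. They are 10 of the 45706 genes in the deposited count table. Sftpd heads the set because it was chosen by its counts in the comparison of the genotypes, where it had the largest rise of all genes that passed the test. Its values in that contrast are therefore given as a description with no test, while the other 9 genes are given with theirs.

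The livers came from C57BL/6 mice of 2 genotypes, 4 labelled HuR WT and 4 labelled HuR KO, and each gave 1 RNA-seq library. HuR, encoded by Elavl1, is an RNA-binding protein known for binding AU-rich stretches of messenger RNAs. No treatment is named, and the age of the mice, the cells that lack HuR and the deleted exons are not given in the sources used here. Libraries held 18649618 to 31249286 counted reads, and the 2 libraries of a group that were most alike still differed by more than sampling noise. Elavl1 itself had a level of 42.0 ± 6.41 CPM (counts-per-million, scaled by TMM normalization) in the WT and 50.02 ± 4.33 in the KO livers (SD, n = 4 each; log2 fold change 0.25, edgeR adjusted p = 0.258). A gene count that is no lower in the knockout does not check the labels, so every direction below is one between labelled groups. Animal numbers in the sample titles fall into 2 series, 98 to 100 and 4-digit numbers. WT replicate 3 and KO replicates 3 and 4 belong to the first, and what the series stand for is not given.

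Collectins join a collagen-like stalk to a head that recognises sugars, and trimers of them assemble into larger bundles. Surfactant proteins A and D coat the airways and other mucosal surfaces. The mannose-binding lectins, collectin-10 and collectin-11 circulate in plasma, much of them made in the liver, and together with ficolins they carry MASP proteases that start the lectin pathway of complement. Collectin-12 is a membrane-bound scavenger receptor, and ficolin A has the same stalk with a fibrinogen-like head.

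The stalk is what the lectins have in common at the sequence level. It is printed here because the length of its longest unbroken repeat separates Sftpd from the genes beside it. Glycine recurs at regular steps along a collagen stalk, so the coding sequence repeats a codon that starts with GG. The first 90 bases of the longest run of such codons are given 5′ to 3′ on the coding strand, from GENCODE M21 transcripts of GRCm38, with each glycine GG in capitals:
Sftpd: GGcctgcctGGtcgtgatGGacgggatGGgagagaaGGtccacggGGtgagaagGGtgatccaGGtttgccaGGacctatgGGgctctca
Sftpa1: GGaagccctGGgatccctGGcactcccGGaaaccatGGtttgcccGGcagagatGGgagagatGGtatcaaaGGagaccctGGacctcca
Colec10: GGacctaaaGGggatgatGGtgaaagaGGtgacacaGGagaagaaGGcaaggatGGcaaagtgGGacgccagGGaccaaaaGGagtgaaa
Colec11: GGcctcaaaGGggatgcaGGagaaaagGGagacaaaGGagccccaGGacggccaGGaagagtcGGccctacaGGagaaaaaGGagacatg
Mbl1: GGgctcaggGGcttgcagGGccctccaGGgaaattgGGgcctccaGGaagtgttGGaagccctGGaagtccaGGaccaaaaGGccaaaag
Mbl2: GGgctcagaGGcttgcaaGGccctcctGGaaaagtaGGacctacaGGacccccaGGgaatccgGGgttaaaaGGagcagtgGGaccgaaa
Fcna: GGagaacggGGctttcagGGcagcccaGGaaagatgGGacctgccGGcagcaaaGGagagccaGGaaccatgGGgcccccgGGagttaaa

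These runs open in the exons of Sftpd on chromosome 14 (41177384 to 41183000, minus strand, across 1 exon junction), of Sftpa1 on the same chromosome (41132539 to 41132628, plus strand) and of Mbl1 (41154506 to 41154595, plus strand). Those of Mbl2 lie on chromosome 19 (30234936 to 30235025, plus strand) and those of Fcna on chromosome 2 (25626968 to 25627436, minus strand, across 2 junctions). Colec10 on chromosome 15 (54410916 to 54439167, plus strand) and Colec11 on chromosome 12 (28599108 to 28617415, minus strand) each cross 2 junctions.

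In Sftpd the run went on for 59 triplets of codons, or 531 bases, and 0.115% of 21765 protein-coding genes with a transcript model held one as long. Colec12 had 49 triplets in a row, while Colec10 and Colec11 had 24 each. The shorter runs belonged to Sftpa1 and Fcna with 13 triplets each and to Mbl1 and Mbl2 with 12 each. A run of 12 was reached by 0.404% of genes. A run stops at any break in the repeat, so it can be shorter than the whole stalk. Masp1 and Masp2 encode no collagen stalk, and their longest run was 2 triplets, which 73.3% of genes had.

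Sftpd was close to silent in the livers labelled WT and present at a low level in all 4 labelled KO. It was measured at 0.328, 0.0822, 0.397 and 0.166 CPM in WT replicates 1 to 4. In KO replicates 1 to 4 it was at 3.99, 3.71, 8.08 and 6.66 CPM. The groups did not overlap, and the lowest KO library lay well above the highest WT library. Behind these values were 9, 2, 12 and 3 reads in the WT libraries and 103, 107, 208 and 177 in the KO libraries. The means were 0.243 ± 0.144 CPM and 5.61 ± 2.12 CPM (SD, n = 4 each), a fitted log2 fold change of 4.43 with a standard error of 0.41. Pooled over libraries, 26 reads stood against 595, a ratio of 22.4 with an exact 95% interval of 15.1 to 34.6 that covers counting error only. Called genes with the next largest rises were Dnaic1 (4.40), Bex1 (4.27), Bmp8b (3.91) and Mmp7 (3.88 on the log2 scale), so the place of Sftpd at the top rests on a margin smaller than its standard error. In whole liver, more cells that make a transcript and more transcript per cell cannot be told apart.

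**Figure D1:**
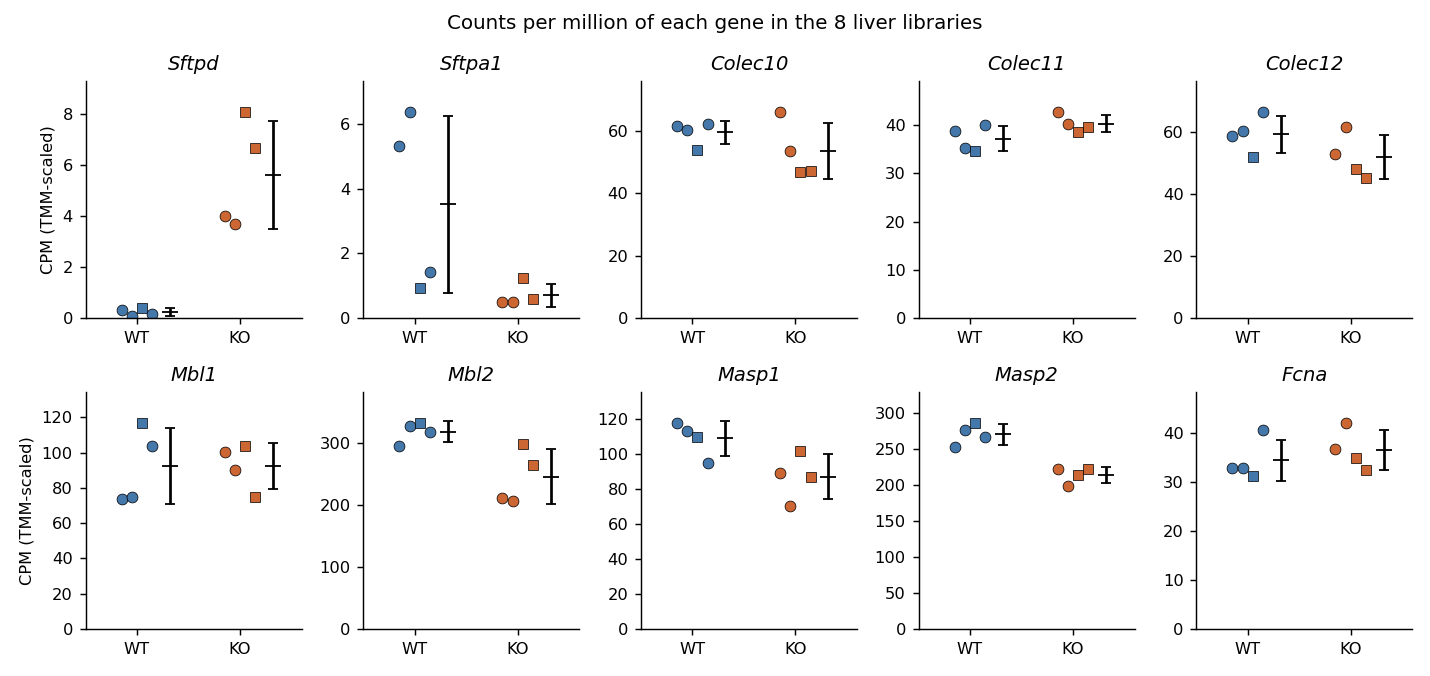
CPM of each of the 10 genes in each library, 1 panel per gene with its own axis; blue points are libraries labelled WT, orange points those labelled KO, squares are animals numbered 98 to 100 and circles those with 4-digit numbers, and black marks give the mean ± SD of 4 libraries. Sftpd and Masp2 are the 2 genes whose groups do not overlap, Sftpd higher and Masp2 lower in the libraries labelled KO.

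The other airway collectin did not follow Sftpd. Sftpa1, which encodes surfactant protein A, was at 5.32, 6.37, 0.925 and 1.44 CPM in WT replicates 1 to 4. In the KO libraries it was at 0.503, 0.485, 1.24 and 0.602 CPM. WT replicates 1 and 2 stood high, with 146 and 155 reads, whereas WT replicates 3 and 4 had 28 and 26 and KO replicate 3, with 32 reads, lay above WT replicate 3. The fitted log2 fold change was −2.31 with a standard error of 0.64 and a 95% interval of −3.74 to −0.88, and it did not pass the test (edgeR quasi-likelihood test, Benjamini-Hochberg adjusted p = 0.083). Without WT replicate 3 the log2 fold change was −2.64 and passed the test (edgeR adjusted p = 0.00673), and without WT replicate 2 it was −1.86 (edgeR adjusted p = 0.168). It was −3.15 among animals with 4-digit numbers (edgeR adjusted p = 0.0311) and −0.01 among those numbered 98 to 100, where a lone WT library is assumed to vary like the KO libraries. A test of that difference between the series gave 3.14 on the log2 scale (SE 1.01), with an edgeR adjusted p of 0.608. Of all genes tested, 0.0205% had an adjusted p under 0.05 for that difference, and none of the 10 did.

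Among themselves, the 2 surfactant proteins exchanged places. Levels of different genes are compared as CPM per kilobase of the deposited gene length. On that scale the ratio of Sftpd to Sftpa1 was 0.33 ± 0.40 (SD, n = 4) in the libraries labelled WT, with a range of 0.0278 to 0.924. It was 17.9 ± 4.21 in those labelled KO, with a range of 14.02 to 23.9. All 4 WT libraries held less Sftpd than Sftpa1, and all 4 KO libraries held more. In WT replicate 3 the 2 genes were close, at 0.299 and 0.3235 CPM per kilobase from 12 and 28 reads. Sftpd was chosen for its rise, so this change of order is a description with no test.

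Mannose-binding lectins recognise mannose and related sugars on microbes and are made by hepatocytes. Mbl2, which encodes mannose-binding lectin C, was at 296, 328, 333 and 319 CPM in the WT libraries. It was at 212, 207, 299 and 265 CPM in the KO libraries, where replicate 3 overlapped the WT range. The fitted log2 fold change was −0.37 (SE 0.12, 95% interval −0.64 to −0.11), and the gene did not pass the test (edgeR adjusted p = 0.106). In animals with 4-digit numbers the value was −0.58 (edgeR adjusted p = 0.0216), and in those numbered 98 to 100, with 1 WT library, it was −0.24 (edgeR adjusted p = 0.34). With the number series as a covariate the log2 fold change was −0.46 (edgeR adjusted p = 0.0118). Mbl1, which encodes mannose-binding lectin A, gave 73.7, 74.9, 117 and 104 CPM in the WT libraries and 101, 90.1, 104 and 75.0 CPM in the KO libraries. Its fitted log2 fold change was 0.00 (SE 0.16, edgeR adjusted p = 0.998), with a 95% interval that ran from a 0.791-fold to a 1.27-fold level. Its sign differed between the series, at 0.19 among 4-digit numbers (edgeR adjusted p = 0.604) and −0.39 among 98 to 100 (edgeR adjusted p = 0.033). The latter sets the KO libraries against WT replicate 3 alone, the highest Mbl1 value of all 8, so its WT arm has no spread of its own. The test of the difference between the series gave −0.57 with an edgeR adjusted p of 0.813.

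MASP proteases are the enzymes of the pathway, and both were measured at lower mean levels in the libraries labelled KO without passing the test. Masp2, whose product cleaves C4 and C2, was at 252, 276, 286 and 266 CPM in the WT libraries. In the KO libraries it was at 222, 198, 214 and 222 CPM, and these groups did not overlap. Its log2 fold change was −0.34 (SE 0.09, edgeR adjusted p = 0.0561). With the number series as a covariate it was −0.36 (edgeR adjusted p = 0.0237), and DESeq2 gave −0.34 with an adjusted p of 0.00266. Masp2 stayed uncalled in 16 of the 19 alternative settings. Masp1 encodes MASP-1 and, by alternative splicing, MASP-3, which the gene count adds together. It was at 118, 113, 110 and 94.8 CPM in the WT libraries and at 89.3, 70.1, 102 and 87.0 CPM in the KO libraries, with overlapping groups and a log2 fold change of −0.32 (SE 0.11, edgeR adjusted p = 0.136).

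The remaining collectins and the ficolin lay close together in the 2 groups. Colec10 and Colec11 encode the partners of a circulating heteromer, and stellate cells are a known source of Colec10. Colec10 was at 61.5, 60.5, 53.9 and 62.3 CPM in the WT libraries and 66.1, 53.6, 46.9 and 47.3 CPM in the KO libraries (log2 fold change −0.15, SE 0.11, edgeR adjusted p = 0.515). Colec11 was at 38.8, 35.3, 34.6 and 40.04 CPM and at 42.7, 40.3, 38.5 and 39.5 CPM (0.12, SE 0.09, edgeR adjusted p = 0.544). Neither gene alone separated the groups. Their ratio per kilobase just missed overlapping, at 2.07 ± 0.09 (1.94 to 2.13) in the WT libraries and 2.53 ± 0.29 (2.14 to 2.77) in the KO libraries (SD, n = 4 each). The ratio of Masp2 to Masp1 overlapped, at 2.08 ± 0.23 and 2.07 ± 0.25. How often ratios of other gene pairs fail to overlap was not counted, so the Colec11 to Colec10 ratio is a description. Colec12 was at 58.7, 60.2, 51.9 and 66.4 CPM in the WT libraries and 52.9, 61.5, 48.1 and 45.1 CPM in the KO libraries (−0.19, SE 0.11, edgeR adjusted p = 0.384). Fcna, the macrophage ficolin, was at 32.8, 32.9, 31.3 and 40.6 CPM and at 36.7, 42.1, 34.9 and 32.5 CPM (0.09, SE 0.11, edgeR adjusted p = 0.727).

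All 10 genes had enough reads to be tested. Of all genes tested, 3.69% passed an adjusted p of 0.05, 2.32% higher and 1.37% lower in the libraries labelled KO. Sftpd was called higher, as its choice requires, and none of the other 9 genes was called in either direction by edgeR. Of these 9, 4 had an unadjusted edgeR p under 0.05 (Sftpa1, Mbl2, Masp1 and Masp2, all with a negative log2 fold change), beside 18.1% of all genes tested. Negative values were fitted for 6 of the 9 and positive ones for 3, with a median of −0.19 beside −0.00 over all genes tested. Groups that did not overlap were found for Sftpd and Masp2, beside 11.2% of all genes, 6.19% higher and 5.01% lower in the libraries labelled KO. DESeq2 called Sftpa1, Mbl2 and Masp2 lower as well, with adjusted p-values of 0.00094, 0.0469 and 0.00266. DESeq2 also called more of all genes, 613 higher and 495 lower, where edgeR called 340 and 201.

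**Figure D2:**
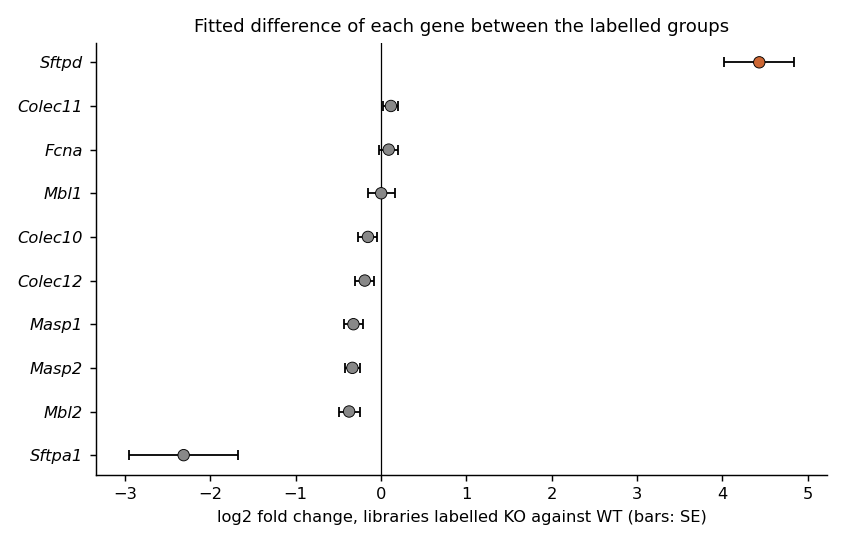
Fitted log2 fold change between the libraries labelled KO and those labelled WT (4 each) for the 10 genes, with bars of 1 standard error; the vertical line marks no difference. Sftpd stands at 4.43 and was selected for that value, Sftpa1 stands at −2.31, and the other 8 genes lie between −0.37 and 0.12.

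Ordered by CPM per kilobase, the circulating lectins of hepatocytes led the set in both groups. In the libraries labelled WT the mean was 290 for Mbl2, 81.7 for Masp2, 39.6 for Masp1, 26.9 for Colec11, 25.1 for Fcna, 17.9 for Colec12, 12.98 for Colec10, 1.23 for Sftpa1 and 0.184 for Sftpd. Mbl1 came second to Mbl2 with libraries at 79.9 to 127. Most neighbours in this order had separate ranges over the 4 libraries. Mbl1 overlapped Masp2, and Colec11 overlapped Fcna. In the libraries labelled KO the order of the first 8 genes was unchanged, from 223 for Mbl2 and 100.1 for Mbl1 down to 11.7 for Colec10. Sftpd, which was chosen for its rise, stood at 4.23 and had moved ahead of Sftpa1, at 0.248, and their ranges were separate. Masp1 overlapped Colec11, Colec11 overlapped Fcna and Colec12 overlapped Colec10 in that group. Even in the livers labelled KO, Sftpd stayed below the least abundant of the plasma lectins.

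**Figure D3:**
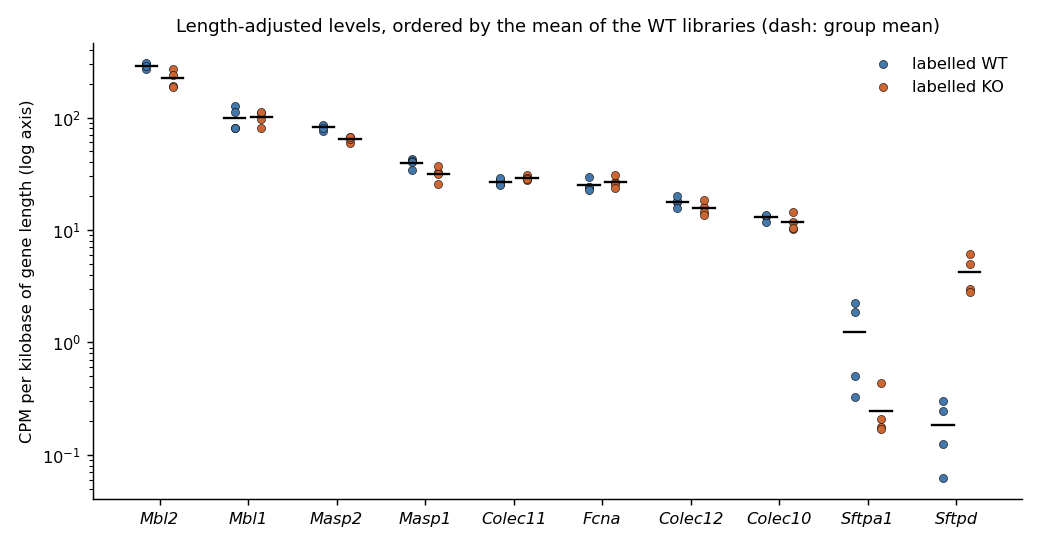
Level of each gene as CPM per kilobase of the deposited gene length on a log axis, for each of the 4 libraries labelled WT (blue) and the 4 labelled KO (orange), with dashes at the group means. Mbl2 is highest in all 8 libraries; Sftpd is lowest in the 4 WT libraries and lies between Colec10 and Sftpa1 in the 4 KO libraries.

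As a share of the summed per-kilobase level of the 10 genes, Sftpd went from 0.0308% ± 0.0181 to 0.821% ± 0.248 (SD, n = 4 each). Mbl2 supplied 48.7% ± 1.44 of the sum in the WT libraries and 43.8% ± 4.65 in the KO libraries, and Mbl1 supplied 16.7% ± 3.03 and 19.8% ± 2.60. The sum itself was 553 to 632 CPM per kilobase in the WT libraries and 464 to 570 in the KO libraries, with overlap. The pool of lectin and protease transcripts was dominated by the 2 mannose-binding lectins in every library.

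Sftpa1, Mbl1 and Sftpd lie next to each other on mouse chromosome 14 (mm10): Sftpa1 at 41131782 to 41136452 on the plus strand, Mbl1 at 41151456 to 41158959 on the plus strand, and Sftpd at 41172212 to 41185198 on the minus strand. The gap from Sftpa1 to Mbl1 is 15003 bases and that from Mbl1 to Sftpd is 13252 bases. Within this cluster the fitted log2 fold changes were −2.31, 0.00 and 4.43 in that order. The nearest tested gene outside the cluster, Mat1a, which encodes the methionine adenosyltransferase of liver, had 7782 ± 860 CPM in the WT libraries and 7176 ± 853 in the KO libraries (−0.12, SE 0.13, edgeR adjusted p = 0.688). Fam213a (−0.10, edgeR adjusted p = 0.746) and Tspan14 (0.16, edgeR adjusted p = 0.579) were the other tested neighbours in a window of 200 kilobases on each side of the cluster, which was chosen after values were seen. Of 15 annotated genes in that window, 6 were tested and Sftpd was the one called. Dydc1 and Dydc2, between Fam213a and Mat1a, had no reads in any library, which allows up to 0.0145 CPM (3 reads in the 206999899 of all libraries; counting error only).

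**Figure D4:**
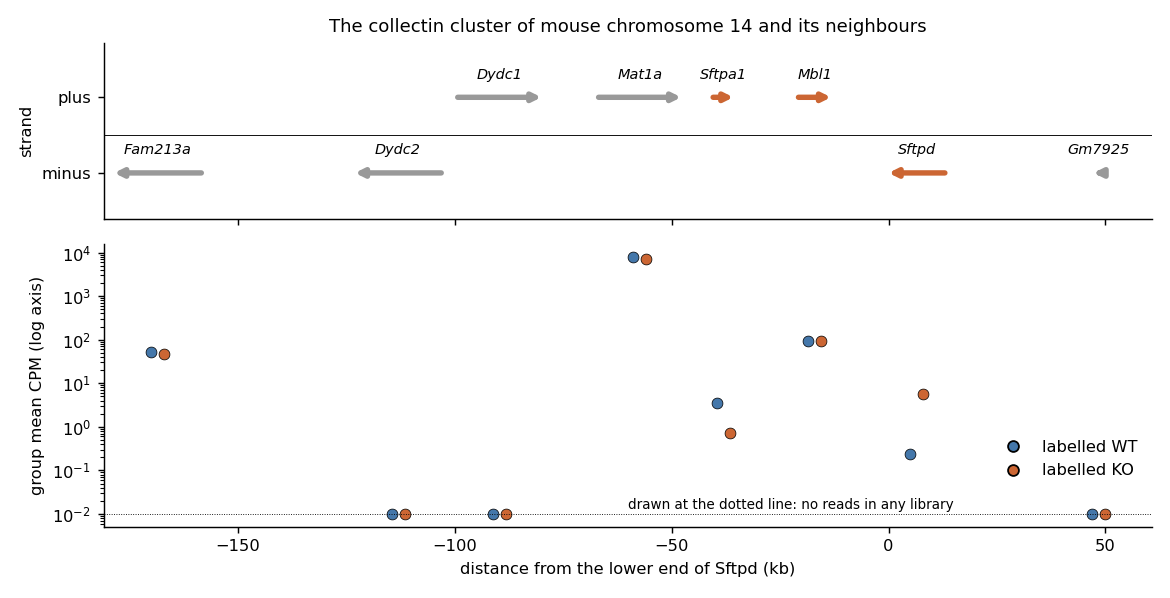
Upper panel, annotated genes from Fam213a to Gm7925 drawn to scale by distance from the lower end of Sftpd in kilobases, on the plus or minus strand, with the 3 collectin genes in orange; lower panel, mean CPM of each gene in the 4 libraries labelled WT (blue) and the 4 labelled KO (orange) on a log axis, with genes without reads on the dotted line. The WT and KO points of Mat1a and Mbl1 lie side by side, those of Sftpa1 are apart with WT above, and those of Sftpd are apart with KO above.

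The other collectin and lectin pathway genes sit elsewhere. Mbl2 is on chromosome 19 (30232928 to 30239685), Colec10 on chromosome 15 (54410774 to 54466358), Masp2 on chromosome 4 (148602554 to 148615499), all on the plus strand. Colec11 is on chromosome 12 (28594173 to 28623290), Masp1 on chromosome 16 (23451785 to 23520590) and Fcna on chromosome 2 (25624666 to 25628030), all on the minus strand. All are annotated as protein-coding.

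Mbl1 and Mbl2 are read from different chromosomes, and their promoters are shown because the 2 genes share more than a coding stalk. The 250 bases before each start site are given 5′ to 3′ on the plus strand from the RefSeq promoter table of GRCm38.p6, for chr14:41151206-41151455 and chr19:30232678-30232927, with the longest stretch that both hold in capitals:
Mbl1: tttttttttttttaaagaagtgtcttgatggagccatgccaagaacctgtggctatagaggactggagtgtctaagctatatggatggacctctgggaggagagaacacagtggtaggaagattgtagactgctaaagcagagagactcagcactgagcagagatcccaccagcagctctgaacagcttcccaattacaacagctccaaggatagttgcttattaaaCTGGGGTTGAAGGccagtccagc
Mbl2: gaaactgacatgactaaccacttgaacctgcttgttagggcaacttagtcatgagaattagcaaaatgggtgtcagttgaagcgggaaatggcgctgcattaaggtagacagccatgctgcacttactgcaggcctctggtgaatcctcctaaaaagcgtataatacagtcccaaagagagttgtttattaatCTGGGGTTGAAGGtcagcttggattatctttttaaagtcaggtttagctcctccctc

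This 13-base stretch lies 23 to 11 bases before the start of Mbl1 and 57 to 45 bases before that of Mbl2. It was found in 3 of the 32851 promoters in the table, and around it 38 of 45 aligned columns were identical (84.4%). Motifs known from liver promoters were searched on both strands. GTTAAT, part of the HNF1 site, had no match in either promoter and was in 6.43% of all promoters. TGTTTA, a FOXA core, had 1 match in Mbl2 and none in Mbl1, beside 12.03% of promoters. Neither TTGCNNAA for C/EBP (9.56%) nor TGANTCA for AP-1 (6.75%) had a match. Beside this shared promoter segment stand the fitted differences of 0.00 for Mbl1 and −0.37 for Mbl2 given above. Their ratio per kilobase, Mbl2 over Mbl1, was 2.999 ± 0.61 and 2.27 ± 0.54 (SD, n = 4 each) with overlap.

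Because HuR is known for AU-rich stretches in 3′ untranslated regions (3′ UTRs), the pentamer ATTTA was counted there on the transcript strand. In Sftpd the 3′ UTR of the chosen model was 122 bases long and held none. Mbl1 and Fcna held none in 725 and 175 bases. Sftpa1 held 5 in 2006 bases, Colec10 10 in 3749, Colec12 10 in 5637, Masp1 1 in 1484, Masp2 2 in 978 and Mbl2 1 in 163. The model used for Colec11 has no 3′ UTR. Of 21765 genes, 58.3% held at least 1, and the longer TTATTTATT, found in 6.55%, was in none of the 9 genes with a 3′ UTR. For the 3 genes that the tests come closest to, 1 short window each is shown with the pentamer in capitals:
Sftpa1: gctcacatatATTTAtacatatata
Mbl2: tttagttttcATTTAt
Masp2: tacaagggcaATTTAgcaaatcatt

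These windows are from GRCm38, chromosome 14 (41136309 to 41136333), chromosome 19 (30239672 to 30239687, where the transcript ends) and chromosome 4 (148615019 to 148615043), all on the plus strand. The Sftpa1 window holds the last of that gene's 5 sites and the Masp2 window the first of 2, so they need not stand for the rest. A pentamer in a window is a match of letters and was not tested as a binding site.

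The 2 series of animal numbers give a comparison that did not enter the choice of Sftpd. With genotype in the fit, Sftpd was higher in animals numbered 98 to 100 by 0.95 on the log2 scale (SE 0.29) and did not pass the test (edgeR adjusted p = 0.106). KO replicates 3 and 4, of that series, had the 2 highest values of the 4 KO libraries. Its difference between the genotypes, for which it was chosen, was 4.25 among 4-digit numbers and 4.196 among 98 to 100, the latter against WT replicate 3 alone. The fitted gap between these values was −0.04 with a standard error of 0.53, which leaves room for a gap of either sign. Mbl2 was higher in the 98 to 100 series by 0.29 (SE 0.10, edgeR adjusted p = 0.155). Colec10 and Colec12 had values of −0.28 each (SE 0.09 each, edgeR adjusted p = 0.126 and 0.12). None of the 10 genes was called between the series, beside 2.41% of all genes tested.

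Genes whose level ran most like that of Sftpd over the 8 libraries were Gsn (Pearson r of 0.998), Bgn (0.996), Tspan8 (0.995), Spp1 (0.993) and Pkhd1 (0.991), out of 11776 genes ranked. Gsn encodes the actin-severing protein gelsolin, Bgn the matrix proteoglycan biglycan, Spp1 the secreted phosphoprotein osteopontin and Pkhd1 fibrocystin of ductal cilia. Their fitted log2 fold changes were 0.99, 0.54, 3.03, 1.94 and 1.48, and all 5 were called, beside 3.69% of all genes tested. Sftpd was chosen for its rise, so likeness over both groups favours genes that rise, and these calls were largely set in advance. With each group's mean removed, the r of these 5 genes with Sftpd was 0.967, 0.944, 0.933, 0.923 and 0.857 in the same order. They were picked by r over the same libraries, so high values here were partly set in advance as well. Deviations of Sftpd in the WT libraries rest on 2 to 12 reads each. By r with group means removed the 5 highest of all were Zdhhc2 (0.986), Tmco3 (0.983), Mras (0.971), Gsn (0.967) and Tmem181a (0.967), and Gsn was the one on both lists. Of these 5, only Gsn was called. The points share their libraries and depths, and the values are a description.

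Some markers of other cell types moved beside Sftpd. Of 14 bile duct markers 13 were tested and 11 were called higher, and the median over the 13 was 2.04 on the log2 scale. Their summed level was 70.9 to 95.5 CPM in the WT libraries and 203 to 308 CPM in the KO libraries, without overlap, and none was at 0 in all libraries. KO replicates 3 and 4, with the most Sftpd, had the largest sums (302 and 308 CPM), ahead of KO replicates 1 and 2 (203 and 207 CPM). Much of these sums was Spp1, at 33.6 to 55.0 CPM in the WT and 123.9 to 210.5 CPM in the KO libraries. Spp1 and Tspan8 of this list were also named above for their likeness to Sftpd, so the parallel is partly built in. Of 14 stellate cell markers 3 were called higher (Cygb, Col1a1 and Hgf), and 11 were not. Their sum was 612 to 658 CPM in the WT libraries and 688 to 764 CPM in the KO libraries, also without overlap. Uncalled Dcn (216.9 and 256.8 CPM, edgeR adjusted p = 0.186) and Reln (90.7 and 109.5 CPM, edgeR adjusted p = 0.168) made up much of that gap. For comparison, 3.69% of all genes were called and 11.2% had groups that did not overlap. The part of either list in the level of Sftpd, or of stellate cells in that of Colec10 and Colec11, was not tested.

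**Figure D5:**
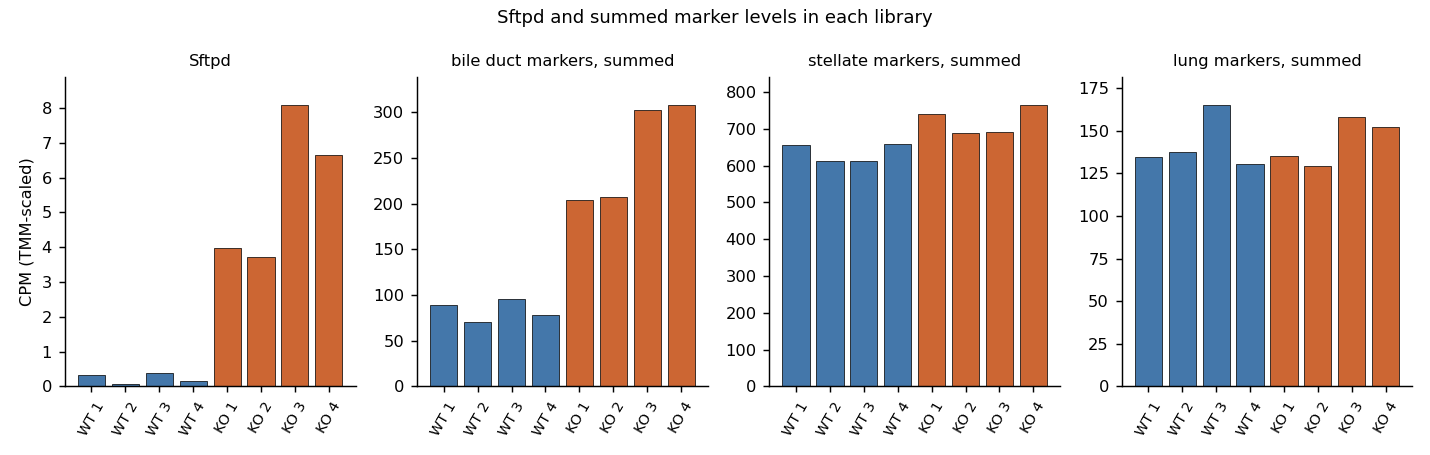
Bars give the CPM of Sftpd and the summed CPM of the bile duct, stellate cell and lung marker lists in each of the 8 libraries (WT blue, KO orange), each panel with its own axis from 0. The KO bars all exceed the WT bars for Sftpd, bile duct and stellate cell markers, and the bars for lung markers overlap at 130 to 165 CPM in WT and 129 to 158 CPM in KO.

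Lung is the best known source of surfactant proteins. Its markers Sftpb, Sftpc and Scgb1a1 had no reads in any of the 8 libraries, a limit of 0.0145 CPM over all of them. Of 12 lung markers 5 were tested and none was called, and 5 were at 0 throughout. Among the others, Nkx2-1 had 1 read in all, in WT replicate 4, Lamp3 had 92, Napsa 211 and Slc34a2 1918 over the 8 libraries. Ager had 40 reads in WT replicate 1, 1 of the 2 libraries with most Sftpa1, and 1 to 11 in the other 7, with 5 in WT replicate 2. Their summed level, 130 to 165 CPM in the WT libraries and 129 to 158 CPM in the KO libraries, overlapped and came mostly from Abca3. The part of lung transcripts in the levels of Sftpd and Sftpa1 was not tested. Of 10 pancreatic acinar markers 1 was tested, none was called and 5 were at 0, with sums of 4.12 to 6.11 and 3.95 to 7.11 CPM.

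Lists for hepatocytes, macrophages, endothelium and lymphocytes gave no call. Over all genes tested 3.69% were called, so no call in lists this short is near that share. Of 12 hepatocyte markers none was called, and their median log2 value of −0.12 stood beside −0.37 for Mbl2, −0.34 for Masp2 and −0.32 for Masp1. Single hepatocyte markers ran from −0.32 for Cyp2e1, much like Masp1 and Masp2, to 0.25 for Cyp3a11. Of 14 Kupffer cell and macrophage markers none was called, with a median of 0.09 beside 0.09 for Fcna, and sums of 472 to 574 and 494 to 636 CPM overlapped. Of 12 endothelial markers none was called (median 0.05), and of 12 lymphocyte and neutrophil markers none of the 10 tested was called (median −0.15). Whether cell numbers account for the values of the lectins was not tested.

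Downstream of the MASPs lie the complement genes. Of 23 genes for substrates, partners and inhibitors of the lectin pathway, 22 were tested, none was called higher and 1 was called lower, with a median of −0.11; over all genes 3.69% were called, so 1 of 22 is near that share. The 1 called was C4bp, a plasma inhibitor that binds C4b, which fell from 524 ± 12.9 to 396 ± 44.5 CPM (SD, n = 4 each, log2 fold change −0.41, SE 0.10, edgeR adjusted p = 0.0454). C2 and C4b, the substrates of MASP-2, are named for their role and after their values were seen. C2 had 38.0 ± 6.74 and 28.2 ± 3.10 CPM (−0.43, edgeR adjusted p = 0.0748), and C4b had 1379 ± 168 and 1226 ± 275 CPM (−0.17, edgeR adjusted p = 0.624).

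Receptors and binding partners of collectins, such as Cd93, Calr and Lrp1, gave no call among the 10 tested of 12, with a median of 0.15. Over all genes tested 3.69% were called, so no call in 10 is near that share. The smallest p belonged to Scarf1, a scavenger receptor of endothelium, at 22.6 ± 2.48 and 16.5 ± 2.77 CPM (−0.45, SE 0.13, edgeR adjusted p = 0.0739). Among 18 other secreted pattern-recognition proteins and liver lectins, 14 were tested, with a median of 0.02. None was called higher and 1 was called lower, beside 2.32% higher and 1.37% lower of all genes tested. A single call is too few to read as a result about the list. The 1 called was Lgals4, which encodes the sugar-binding galectin-4 and fell from 43.2 ± 11.2 to 22.8 ± 1.39 CPM (−0.92, SE 0.15, edgeR adjusted p = 0.0052).

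Sftpd is also known as a product of mucosal epithelia, and 15 other genes for secreted defence proteins of such surfaces were listed. Of these, 6 were tested and 2 were called higher, none lower, beside 2.32% higher and 1.37% lower of all genes tested. The median was 0.89 over the 6, and the 4 not called ran from −0.07 to 1.23. Muc1, a membrane mucin that is also on the bile duct list, rose from 0.419 ± 0.098 to 2.52 ± 0.947 CPM (2.55, SE 0.37, edgeR adjusted p = 0.00208). Defb1, which encodes a beta-defensin of epithelia, rose from 0.892 ± 0.227 to 2.73 ± 1.097 CPM (1.63, SE 0.36, edgeR adjusted p = 0.0225). In the libraries labelled KO, Muc1 ran from 1.49 to 3.61 CPM and Defb1 from 1.28 to 3.74 CPM, beside 3.71 to 8.08 CPM for Sftpd. The list was drawn up with the bile duct result known, and most of its genes had too few reads to test.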

How the data were processed

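RNA-seq of mRNA-enriched RNA from whole liver was deposited as 1 table of raw read counts per gene, with the gene length beside them. Per the submitters' processing notes, reads were demultiplexed with bcl2fastq 2.19.1, aligned with GSNAP to mm10 and counted by the authors with featureCounts 1.5.1; per the file headers, Ensembl 81 genes were used and reads were counted by strand (-s 2) with a mapping quality of at least 1. Reads that map to more than 1 place would be lost by such a filter, and isoforms are summed. The table's 92 spike-in rows held no reads and were left out.

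Genes were filtered with filterByExpr (minimum count 10), leaving 14645, and fitted in edgeR 4.0.16 (R 4.3.3) with TMM scaling and the robust quasi-likelihood test on all 8 libraries and genotype alone; p-values were Benjamini-Hochberg adjusted over all 14645 genes and called at 0.05. Standard errors are the log2 fold change over the root of the F statistic. Log2 CPM used a prior count of 2. Levels between genes used CPM per kilobase of the deposited gene length. The alternatives were DESeq2 1.42.0, limma-voom 3.58.1, other scalings and filters, the number series as a covariate or alone, a replicate block and leaving out each library. On simulated counts with 4 libraries per group, the edgeR step recovered 21 of 50 genes changed 1.5-fold, 38 of 50 at 2-fold and 49 of 50 at 4-fold, and called 4 of 14445 unchanged genes. Whether the animals are littermates is not given; p-values measure the spread between these libraries.

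The 10 genes and all lists were chosen with earlier results of these data known. Genes named by rule beyond the 10 came from each list that is no cell type marker list. They were up to 3 called genes in order of p or else the gene with the smallest p. The rule also named the 5 genes most like Sftpd by Pearson r over the libraries and the 5 by r of deviations from group means. These were taken among tested genes with a mean log2 CPM over 0, leaving out predicted gene models. Other genes, such as single cell type markers, chromosome neighbours and Tff3, were named outside this rule. Transcripts came from GENCODE M21 (GRCm38) and promoters from RefSeq (GRCm38.p6), where 6 of the 10 genes matched. Gene lengths in the 2 annotations differ, and levels per kilobase rest on the deposited ones.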

Additional observations from a re-analysis of the deposited data

How the results depend on the processing

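Sftpd was selected for its rise in this contrast, so its values under other settings are no independent check: its log2 fold change was 4.10 to 4.78 over 19 alternatives (4.15 to 4.78 on leaving out 1 library at a time), and no other gene of the 10 was called higher in any. Counts over all genes moved more. From 340 called higher, the count was 215 among 4-digit animals, 613 with DESeq2 and 151 to 710 on leaving out 1 library. From 201 called lower, it was 328 with no filter on low counts, 308 with the number series as a covariate, 528 among animals 98 to 100, 495 with DESeq2 and 71 to 534 on leaving out 1 library. Of the 10 genes, the count called lower went from 0 to 1 with no filter (Mbl2), 2 with the covariate (Mbl2 and Masp2), 2 among 4-digit animals (Sftpa1 and Mbl2), 2 among animals 98 to 100 (Mbl1 and Masp2, against 1 WT library assumed to vary like the KO libraries), 3 with DESeq2 and 0 to 1 on leaving out 1 library (Sftpa1, without WT replicate 3). Mbl1 changed sign with RLE scaling and with DESeq2 (−0.0037 each), no filter (−0.0006), the covariate (−0.0251) and animals 98 to 100 (−0.3924), and ran from −0.0969 to 0.1381 on leaving out 1 library, so it has no direction. Of the 5 genes most like Sftpd, 2 remained by Spearman rank and 4 with a prior count of 0.5. The cause of these moves was not tested. The replicate numbers do not pair the libraries: same-numbered ones had correlations of deviations of −0.147 to 0.122. With a replicate block 353 genes were higher and 211 lower, 1 and 0 among the 10. Sftpa1 was not tested under the stricter filter. At 2 to 12 reads per WT library, the WT level of Sftpd is known only coarsely. With 4 libraries a group, 21 of 50 simulated differences of 1.5-fold were recovered, taken over all read levels together. The differences fitted for Mbl2, Masp1 and Masp2 are smaller than 1.5-fold. Recovery of differences of that size at the read levels of Mbl2, Masp1 and Masp2 was not tested.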

Other observations

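Tff3, a trefoil peptide secreted by mucosal epithelia, had too few reads to be tested. It had 6, 2, 0 and 0 reads in WT replicates 1 to 4 and 14, 4, 22 and 49 in KO replicates 1 to 4. Reg3b, Reg3g and Bpifb1, other secreted defence proteins, had no reads in any library.

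With group means removed, the highest Pearson r over the 8 libraries for a pair of the 10 genes was 0.93 for Colec12 with Fcna, followed by 0.729 for Colec10 with Colec11, the partners of the heteromer. The lowest were −0.774 for Masp1 with Fcna, −0.763 for Colec10 with Mbl2 and −0.715 for Sftpd with Colec12. Among the plasma lectins and their proteases it was 0.586 for Mbl2 with Masp1, 0.437 for Mbl2 with Masp2 and 0.378 for Masp1 with Masp2. The other lectins did not share this sign throughout. With Masp1 and Masp2, r was −0.096 and 0.305 for Mbl1, −0.209 and −0.129 for Colec10, −0.338 and −0.411 for Colec11. For Fcna it was −0.774 and −0.583. For Sftpd it was −0.154 with Sftpa1 and 0.142 with Masp2. These are descriptions over libraries that share their depth and preparation.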
